A study of Rattus norvegicus with 30 samples.

Results

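Male rats that had been exposed to predator scent and then showed an extreme behavioural response were compared with exposed males whose response was minimal. The comparison holds the arrays of rats whose identifier ends with R and whose labelled response is extreme (5 arrays) or minimal (4 arrays with values). These are 9 of the 29 arrays with values in the series. All rats were adult Sprague Dawley rats, and every array held total RNA of a dissected hippocampus, 1 rat to an array. The third male group, 5 unexposed control rats that also went through the behavioural test, is given beside the others, and the series holds the same 3 groups of females. Rats are called here by the replicate number of their label, and the male minimal responder labelled replicate 5 has an array with no values. The labels do not give the behavioural scores, the time between exposure and dissection, or separate extractions of a rat.

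Predator scent is a threat that rats respond to without being touched, and individual rats differ widely in how strongly their later behaviour changes. The hippocampus stores the context of a threat and restrains the hormonal stress axis, partly through its mineralocorticoid and glucocorticoid receptors, which act as transcription factors once corticosterone binds them. Its RNA comes from granule cells, pyramidal cells and interneurons together with glia and vessels. In such bulk samples fewer cells of a type and less RNA per cell cannot be told apart.

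Values are log2 intensities of bead array probes, already normalized so that every array has the same distribution, with a median of 6.96. A probe was tested when it exceeded 7.03, which is 3 background standard deviations above the background mode, on at least 5 arrays. This kept 11888 of 22523 probes, 52.8%, which represent 8388 genes by symbol. Defining neuronal and glial transcripts were well above that level in both groups: Snap25, a synaptic fusion protein, averaged 12.91 in extreme and 12.86 in minimal responders, and Gfap, the astrocyte filament protein, averaged 13.28 in extreme and 13.01 in minimal responders.

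Some arrays stood apart before any group was compared. On 8 probes the 29 arrays fall into the same 12 and 17 with a gap of at least 0.8 between them, a division that no label names. The 12 are called set A here and the 17 set B. Rpl37l1, a ribosomal protein L37-like transcript, was 9.78, 10.00, 9.87, 8.89 and 9.53 in the 5 extreme responders and 12.59, 12.47, 9.55 and 12.35 in the 4 minimal responders. All 5 extreme responders were therefore in set B, and 3 of the 4 minimal responders, replicates 1, 2 and 4, were in set A, so minimal responder 3 is the only male minimal rat measured on the same side as the extreme rats. In the fit of all groups 2249 probes, 18.9%, differed between the sets, and the values of the called genes are given also with the set as a block. The block assumes the same set difference in every group. No extreme rat of either sex is in set A and 1 male minimal rat is in set B. The set difference is therefore estimated largely from controls and female minimal rats, not within the males compared here. The 5 male controls held 3 arrays of set A and 2 of set B. Minimal responder 2 carried choroid plexus transcripts, which come from the tissue beside the hippocampus: Folr1, a folate receptor, was 8.71 in that rat against 6.80, 6.97 and 6.90 in the other 3 minimal responders. Extreme responder 4 had a median correlation with the other arrays of 0.964, where the other 8 rats had 0.982 to 0.986.

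**Figure D1:**
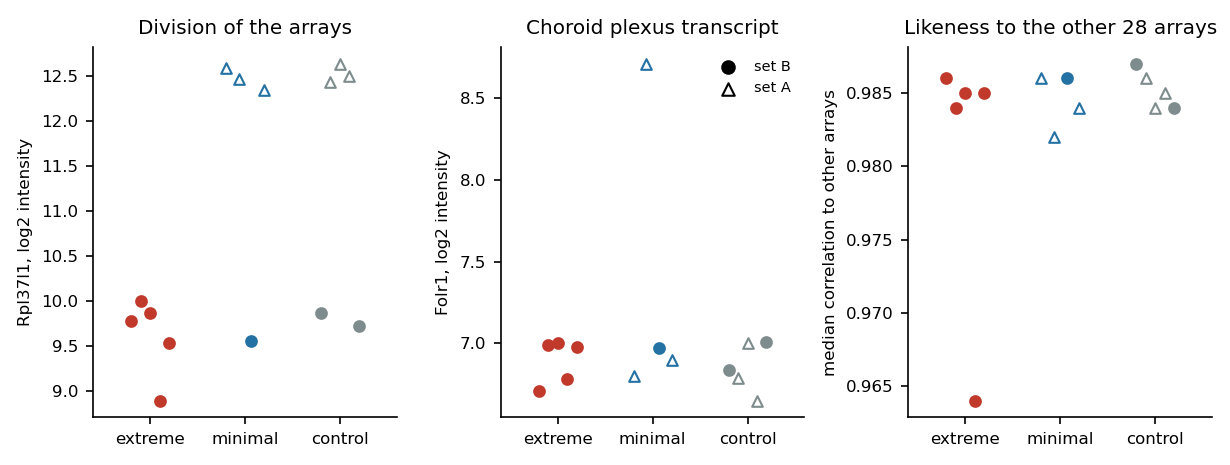
Rpl37l1 and Folr1 log2 intensity and each array's median correlation with the other arrays, for male extreme, minimal and control rats; 1 point is 1 rat, open triangles are set A and filled circles set B. Rpl37l1 lies between 8.89 and 10.00 in all 5 extreme responders and at 12.35 or above in 3 of 4 minimal responders, Folr1 reaches 8.71 in 1 minimal responder, and 1 extreme responder has a correlation of 0.964.

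Few transcripts separated extreme from minimal responders beyond the spread between rats, and those that did differed by modest amounts. Marcksl1, Ppt1, Cdk2ap1 and Zfp638 were higher in extreme responders, and Mnat1, Nus1, Stim1, Pakap and an unnamed probe were lower. In limma's fit of all 29 arrays with Benjamini-Hochberg adjustment, 9 of 11888 probes passed an adjusted p of 0.05, which is 0.0757%, with 4 higher (0.0336%) and 5 lower (0.0421%). The smallest adjusted p was 0.0403. An unadjusted p under 0.05 was reached by 1799 probes, 15.1%, of which 821 (6.91%) were higher and 978 (8.23%) lower. The values of the extreme and minimal rats did not overlap for 169 higher probes, 1.42%, and 287 lower probes, 2.41%. The 9 calls rested on the particular rats in the fit: no probe passed when minimal responder 1 or 4 or extreme responder 1, 2 or 4 was left out, 1 passed without minimal responder 2, 17 without extreme responder 3, 35 without extreme responder 5 and 101 without minimal responder 3. Without minimal responder 3 the extreme rats are all of set B and the minimal rats all of set A. The count of 101 therefore cannot tell set from response. When the set entered the fit as a block, 4 probes passed, 0.0336%, none of them among the 9. All 9 kept their sign in that fit and an unadjusted p under 0.05, with adjusted p values given for each gene below.

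**Figure D2:**
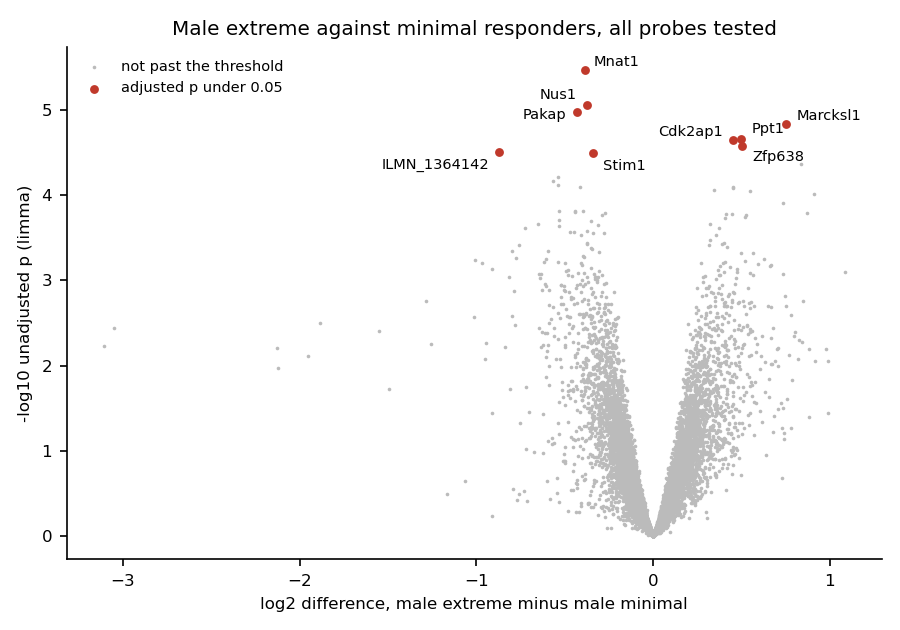
Log2 difference, male extreme minus male minimal (x axis), against -log10 of limma's unadjusted p (y axis) for all 11888 probes tested, 1 point a probe; red points passed an adjusted p of 0.05 and carry their names. The 9 red points lie just above the grey ones, 4 to the right and 5 to the left, and the widest grey differences on the left have larger p values.

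Among the 4 transcripts past the threshold and higher in extreme responders, Marcksl1 had the widest difference. It encodes a MARCKS-like protein that binds actin under the membrane of growing neurites, and it serves as a marker of immature neurons. Its log2 intensity was 9.32, 9.55, 9.37, 9.33 and 9.51 in extreme responders, against 8.60, 8.65, 8.98 and 8.44 in minimal responders. The groups did not overlap, and minimal responder 3, on the same side of the set division as the extreme rats, was the highest of the minimal group. The difference was 0.75 ± 0.14 (SE), a 1.68-fold higher level, with an adjusted p of 0.0423 in limma. The male controls averaged 8.93 ± 0.31 (SD, n = 5). Marcksl1 itself differed by -0.37 between set A and set B, and with the set as a block the difference between responders was 0.48, adjusted p = 0.142.

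Ppt1, palmitoyl-protein thioesterase 1, removes fatty acids from proteins in the lysosome, and its loss causes an infantile neuronal ceroid lipofuscinosis in humans. It was 11.69, 11.83, 11.73, 11.78 and 11.58 in extreme responders, against 11.10, 11.32, 11.39 and 11.09 in minimal responders. No extreme rat was as low as the highest minimal rat. The difference of 0.50 ± 0.10, 1.41-fold, had an adjusted p of 0.0423 in limma and was 0.32 with the set as a block, adjusted p = 0.156. Ppt1 also differed between the sets themselves, by -0.24 in set A against set B.

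Cdk2ap1, a small partner of the kinase CDK2 and of the NuRD chromatin complex, showed no such set difference (-0.03, adjusted p = 0.83). Its values were 10.14, 9.86, 10.09, 9.97 and 10.00 in extreme responders, against 9.68, 9.52, 9.58 and 9.45 in minimal responders. The groups did not overlap, and the difference of 0.45 ± 0.09 had an adjusted p of 0.0423 in limma. It was 0.43 with the set as a block, adjusted p = 0.132. Zfp638, a zinc finger protein of the nucleus that binds nucleic acids, is the one called gene whose groups met. It was 9.94, 9.75, 10.14, 10.06 and 10.06 in extreme responders, against 9.74, 9.75, 9.19 and 9.25 in minimal responders. Minimal responders 1 and 2 lay at the level of extreme responder 2, while minimal responders 3 and 4 were lower than every extreme rat. The difference of 0.50 ± 0.10 had an adjusted p of 0.0423 in limma, and 0.122 with the set as a block, where it was again 0.50.

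Among the transcripts past the threshold and lower in extreme responders, Mnat1 had the smallest p. It encodes MAT1, the assembly factor of the CDK-activating kinase within the transcription factor TFIIH. Its log2 intensity was 10.24, 10.27, 10.38, 10.36 and 10.52 in extreme responders, against 10.71, 10.80, 10.63 and 10.80 in minimal responders. The groups did not overlap, and the male controls, at 10.68 ± 0.06 (SD, n = 5), lay with the minimal responders. Mnat1 fell by 0.38 ± 0.07, to 0.767 of the level in minimal responders, with an adjusted p of 0.0403 in limma. With the set as a block the difference was again -0.38, adjusted p = 0.0697.

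Stim1, the calcium sensor of the endoplasmic reticulum that opens store-operated channels in the plasma membrane, was 10.94, 10.83, 11.07, 10.94 and 10.85 in extreme responders. It was 11.29, 11.28, 11.31 and 11.20 in minimal responders. The minimal group was tight, and every extreme rat was below it. Stim1 fell by 0.34 ± 0.07, adjusted p = 0.0423 in limma, and the difference was -0.33 with the set as a block, adjusted p = 0.132. Male controls averaged 11.26 ± 0.13 (SD, n = 5).

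Nus1 encodes the Nogo-B receptor, a subunit of the enzyme that makes dolichol, the lipid carrier of sugars for glycoproteins. It was 8.73, 8.47, 8.79, 8.54 and 8.77 in extreme responders, against 9.07, 8.96, 8.99 and 9.11 in minimal responders. The groups did not overlap. The difference of -0.37 ± 0.07 had an adjusted p of 0.0421 in limma, and was -0.35 with the set as a block, adjusted p = 0.113. Pakap, a locus that joins paralemmin and a protein kinase A anchor, was close to the background: 7.10, 6.78, 7.15, 7.04 and 6.91 in extreme responders, against 7.35, 7.52, 7.39 and 7.45 in minimal responders. It exceeded the background threshold on 7 of the 9 arrays, and every minimal rat was above every extreme rat. Its difference was -0.43 ± 0.08, adjusted p = 0.0421 in limma and 0.0895 with the set as a block. The probe ILMN_1364142, which has no gene symbol in the annotation, was 8.01, 8.18, 8.49, 7.24 and 8.09 in extreme responders, against 9.06, 8.77, 8.83 and 8.83 in minimal responders. Extreme responder 4 was the lowest rat, and the groups did not overlap. The difference was -0.87 ± 0.18, adjusted p = 0.0423 in limma, and -0.74 with the set as a block, adjusted p = 0.147.

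**Figure D3:**
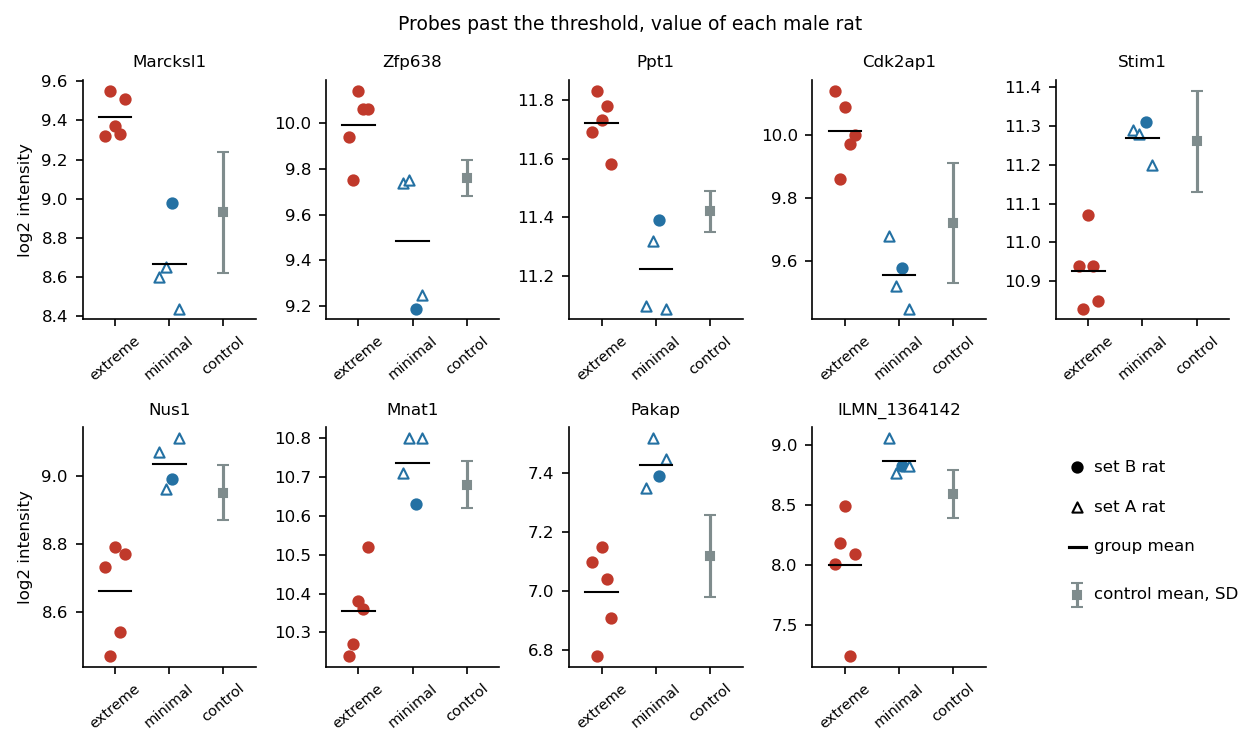
Log2 intensity of the 9 probes past the threshold, 1 panel each with its own axis; points are rats of the male extreme (red) and minimal (blue) groups, open triangles set A and filled circles set B, black lines group means, and grey squares the mean and SD of 5 male controls. In 8 of the 9 panels the extreme and minimal rats do not overlap, and the filled blue circle, minimal responder 3, lies outside the range of the extreme rats in all 9.

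The promoter sequences of 7 of the 8 named genes were found in RefSeq (GRCr8), each from 250 bases before to 50 after the gene's start. They are shown for Marcksl1, the called higher gene with the widest difference (chr5:147135577-147135876, plus strand), and for the 2 lower genes Mnat1 (chr6:97560906-97561205, plus strand) and Stim1 (chr1:166067964-166068263, plus strand), so that the boxes of transcripts that moved in opposite directions can be read side by side. Capitals mark the GC box, GGGCGG on either strand.
Marcksl1 promoter: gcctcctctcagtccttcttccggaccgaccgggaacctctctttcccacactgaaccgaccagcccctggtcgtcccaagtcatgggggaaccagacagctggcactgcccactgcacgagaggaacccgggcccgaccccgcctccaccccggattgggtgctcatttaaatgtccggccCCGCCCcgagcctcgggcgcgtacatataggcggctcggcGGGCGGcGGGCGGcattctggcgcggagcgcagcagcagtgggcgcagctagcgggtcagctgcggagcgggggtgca
Mnat1 promoter: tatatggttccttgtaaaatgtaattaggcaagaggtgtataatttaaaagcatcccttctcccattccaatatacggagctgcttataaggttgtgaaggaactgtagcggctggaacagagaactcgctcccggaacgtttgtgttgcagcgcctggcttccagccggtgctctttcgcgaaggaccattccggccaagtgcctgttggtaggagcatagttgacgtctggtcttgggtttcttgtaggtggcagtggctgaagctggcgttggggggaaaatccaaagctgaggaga
Stim1 promoter: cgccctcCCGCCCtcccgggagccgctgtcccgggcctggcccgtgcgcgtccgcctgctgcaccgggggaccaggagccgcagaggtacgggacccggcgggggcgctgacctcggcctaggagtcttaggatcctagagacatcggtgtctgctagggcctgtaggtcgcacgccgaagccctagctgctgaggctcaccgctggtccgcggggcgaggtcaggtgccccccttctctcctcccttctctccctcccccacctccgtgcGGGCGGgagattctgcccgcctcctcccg
The Marcksl1 window holds 3 GC boxes, the Mnat1 window 0 and the Stim1 window 2. Among the windows not shown, the lower gene Nus1 has 3, and the higher genes Cdk2ap1 and Zfp638 and the lower gene Pakap have 0. The GC box was found in 3 of the 7 windows and in 33.1% of 33469 RefSeq promoters of that length. The CCAAT box, searched as ATTGG on either strand, was found in 3 of the 7 and in 37.5% of all. The cAMP response element TGACGTCA was found in 0 of the 7 and in 1.83% of all.

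With the set as a block the 4 probes past the threshold were all lower in extreme responders. Orai2, which encodes a pore subunit of the store-operated calcium channels that STIM1 opens, was the only one with a symbol. Its values were 8.70, 8.88, 9.39, 8.72 and 9.11 in extreme responders, against 9.71, 9.33, 9.77 and 9.64 in minimal responders. Extreme responder 3 lay above minimal responder 2, and the other 4 extreme rats were below every minimal rat. The difference was -0.65 ± 0.15 without a block, adjusted p = 0.0714 in limma, and -0.87 with it, adjusted p = 0.0232. The unnamed probes ILMN_1363787, ILMN_1354705 and ILMN_1373242 had differences of -0.71, -0.37 and -0.45 with the set as a block. Without it the differences were -0.48, -0.28 and -0.21, with adjusted p values of 0.0968, 0.074 and 0.379 in limma. ILMN_1354705 exceeded background on 4 of the 9 arrays, and the groups overlapped for ILMN_1373242.

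**Figure D4:**
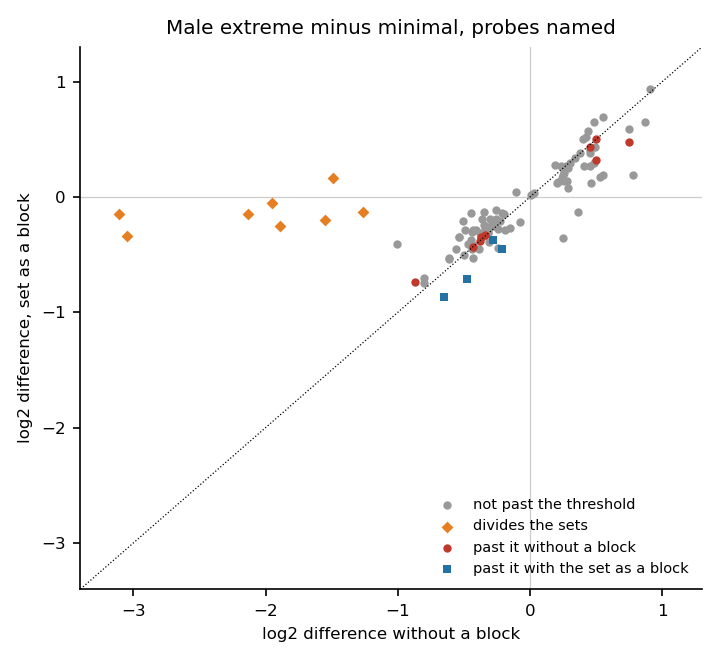
Log2 difference, male extreme minus male minimal, without a block (x axis) and with the set as a block (y axis) for the probes named by rule; 1 point a probe, the dotted line marks equal values. The orange diamonds, the probes that divide the sets, range from -3.11 to -1.26 on the x axis and from -0.34 to 0.16 on the y axis, while the red points past the threshold without a block stay close to the line, with Marcksl1 at 0.75 and 0.48 the farthest from it.

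Several further transcripts came close to the threshold without passing it. Stmn1, the microtubule-destabilising phosphoprotein stathmin 1, was 12.41, 11.96, 11.76, 13.04 and 12.07 in extreme responders, against 11.30, 11.36, 11.32 and 11.37 in minimal responders. All extreme rats were above all minimal rats, with extreme responder 4 the highest, and the minimal rats lay at the controls' level of 11.42 ± 0.13 (SD, n = 5). The difference was 0.91 ± 0.20, adjusted p = 0.0603 in limma, and 0.94 with the set as a block, adjusted p = 0.132. Timp2, an inhibitor of matrix metalloproteinases, differed by 0.87 ± 0.20 (adjusted p = 0.0665), but extreme responder 5, at 8.22, lay below minimal responder 3, at 8.25. F2r, the thrombin receptor PAR1, differed by 0.45 ± 0.10 with no overlap between the groups (adjusted p = 0.058). Rack1, a scaffold of the small ribosomal subunit, differed by 0.45 ± 0.10 (adjusted p = 0.0665). These 3 differences were 0.65, 0.41 and 0.38 with the set as a block.

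On the lower side, Polr1f, a subunit of RNA polymerase I, differed by -0.54 ± 0.11 and Ppcs, an enzyme of coenzyme A synthesis, by -0.41 ± 0.09, each with an adjusted p of 0.058 in limma. Higd2a and Cox19, both factors of cytochrome oxidase assembly, differed by -0.54 ± 0.12 and -0.44 ± 0.10, with adjusted p values of 0.058 and 0.0665. A second Higd2a probe had a difference of -0.37 ± 0.15. Wnt4, a secreted Wnt ligand, was 8.88, 9.00, 9.63, 8.22 and 9.59 in extreme responders, against 9.97, 9.78, 9.82 and 9.88 in minimal responders. The extreme rats were widely spread and all below the minimal rats, and the difference of -0.80 ± 0.20 had an adjusted p of 0.09. Dusp6, a phosphatase of the MAP kinase ERK that is induced by neuronal activity, differed by -0.61 ± 0.16 (adjusted p = 0.0968). In the blocked fit the differences were -0.35 for Polr1f, -0.29 for Ppcs, -0.35 for the first Higd2a probe, -0.30 for Cox19, -0.75 for Wnt4 and -0.54 for Dusp6.

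The widest differences among named genes regardless of p included several that a few arrays set, and these genes were chosen after their values were seen. Rpl37l1, Rpl7 and Rpl23 had differences of -2.13, -1.49 and -1.26, and of -0.15, 0.16 and -0.13 with the set as a block. All are among the probes that define the sets, so the block had to take up most of their differences. Sostdc1, a secreted inhibitor made in the choroid plexus, was 11.87 in minimal responder 2 and between 6.70 and 7.29 in the other 8 rats. Rps29, a small-subunit ribosomal protein, differed by -1.01 ± 0.26, adjusted p = 0.0968, and by -0.41 with the set as a block. Klf5, a Krüppel-like transcription factor, was 9.87, 8.76, 8.95, 10.31 and 9.50 in extreme responders, against 8.01, 8.16, 9.07 and 8.34 in minimal responders. Minimal responder 3 lay within the extreme range, and the difference of 1.09 ± 0.29 had an adjusted p of 0.0968, and it was 1.24 with the set as a block.

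None of the measured genes of corticosteroid signalling passed the test. Of 20 glucocorticoid-responsive genes measured, 3 were higher and 17 lower in extreme responders, with a median of -0.15, beside 46.4% higher and a median of -0.01 over all 8388 genes, of which 8 passed the test, 0.0954%. With the set as a block 6 of the 20 were higher and the median was -0.08. Against male controls, without a block, the median was 0.01 in extreme responders and 0.12 in minimal responders. Sgk1, a kinase induced by corticosteroids, was 11.77, 11.56, 11.54, 11.55 and 11.99 in extreme responders, against 11.89, 11.76, 12.07 and 12.29 in minimal responders. The groups overlapped, and the difference was -0.32 ± 0.20, adjusted p = 0.463 in limma. Male controls averaged 11.56 ± 0.53 (SD, n = 5) for Sgk1, beside 11.68 in extreme and 12.00 in minimal responders. Fkbp5, the chaperone that dampens the glucocorticoid receptor, differed by -0.32 ± 0.14, adjusted p = 0.276. Its extreme responder 4, at 9.39, was far below the other extreme rats, at 10.19 to 10.51, and the minimal rats ranged from 10.34 to 10.61. The receptors themselves showed differences of 0.01 ± 0.10 for Nr3c1, the glucocorticoid receptor, which exceeded background on 2 of the 9 arrays, and -0.24 ± 0.14 for Nr3c2, the mineralocorticoid receptor. Hsp90aa1, a chaperone of both receptors, differed by 0.48 ± 0.15 with no overlap between the groups, adjusted p = 0.132.

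Activity-dependent genes did not pass the test either, beside 8 of all 8388 genes, 0.0954%, a share at which lists this short would seldom hold a call. Of 17 immediate early genes 10 were higher and 7 lower, with a median of 0.02, and -0.15 without minimal responder 2 and extreme responder 4. Fos was 8.12, 8.23, 7.56, 8.97 and 7.37 in extreme responders, against 7.29, 7.63, 7.65 and 7.86 in minimal responders. The groups overlapped, with minimal responder 1 below every extreme rat, and the difference was 0.44 ± 0.23, adjusted p = 0.362 in limma. Arc, a synaptic capsid-like protein, differed by -0.11 ± 0.26 and Bdnf, the brain-derived neurotrophic factor, by -0.08 ± 0.11. Nr4a3 and Klf4, both inducible transcription factors, differed by -0.37 ± 0.15 and -0.33 ± 0.12, with adjusted p values of 0.255 and 0.189. Of 16 activity-induced effector genes 3 were higher and 13 lower, with a median of -0.10, and -0.03 with the set as a block. Of 19 neurotrophin and growth factor genes 5 were higher and 14 lower, with a median of -0.14 in both fits.

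Astrocyte, myelin and interneuron lists each held more genes that were higher than lower in extreme responders. No gene of these lists passed the test, beside 0.0954% of all genes. Of 15 microglia and macrophage markers 5 were higher. Of 8 oligodendrocyte precursor markers 2 were higher, with a median of -0.03. These 2, Cspg5 at 0.53 ± 0.17 and C1ql1 at 0.26 ± 0.10, were the only precursor markers with an unadjusted p under 0.05 in limma. With the set as a block they differed by 0.17 and 0.14. Of 14 astrocyte markers 11 were higher, with a median of 0.24, and 0.14 with the set as a block. An unadjusted p under 0.05 was reached by 57.1% of them, 7 higher and 1 lower, beside 15.6% of all genes. Of the 3 lower markers, Slc4a4 differed by -0.27 ± 0.11, and Gja1 and Gjb6 by -0.03 each. S100b, a calcium-binding protein of astrocytes, was 12.88, 13.07, 13.04, 13.11 and 13.00 in extreme responders, against 12.82, 12.78, 12.82 and 12.69 in minimal responders. The groups did not overlap, the difference was 0.24 ± 0.08, adjusted p = 0.142, and the controls, at 13.05 ± 0.15 (SD, n = 5), lay with the extreme rats. Aldoc, the astrocyte aldolase, differed by 0.28 ± 0.09. With the set as a block S100b differed by 0.16 and Aldoc by 0.14. The mean of the 14 markers was 11.60 to 11.82 in the extreme rats, and in the minimal rats 11.44, 11.41 and 11.48 on set A and 11.67 in minimal responder 3. The minimal rat of set B therefore lay inside the extreme range.

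Of 21 oligodendrocyte and myelin genes 18 were higher, with a median of 0.16, 0.08 with the set as a block and 0.31 without minimal responder 2 and extreme responder 4. In the blocked fit 14 were higher. Without the block 4 of them, 19%, had an unadjusted p under 0.05 in limma, beside 15.6% of all genes. The mean of the list overlapped between the groups, at 10.29 to 10.91 in the extreme rats and 10.08 to 10.75 in the minimal rats. Mbp, myelin basic protein, chosen after its values were seen, was 11.75, 12.10, 11.90, 12.32 and 12.43 in extreme responders, against 11.44, 10.84, 11.99 and 10.48 in minimal responders. Minimal responder 3 lay within the extreme range, and the difference was 0.91 ± 0.33 without a block and 0.19 with it, adjusted p = 0.181 without. Bcas1, a marker of newly myelinating oligodendrocytes, differed by 0.48 ± 0.16 (adjusted p = 0.159). Of 14 interneuron markers 10 were higher, with a median of 0.15, and 0.17 with the set as a block. Sst, the peptide somatostatin, was 10.20, 10.07, 10.29, 10.21 and 10.03 in extreme responders, against 9.56, 9.77, 9.99 and 9.73 in minimal responders. The groups did not overlap, the difference was 0.40 ± 0.18, adjusted p = 0.287, and the controls varied widely at 9.54 ± 0.54 (SD, n = 5). Gad1, the enzyme that makes GABA, differed by 0.42 ± 0.15, and Npy, neuropeptide Y, by 0.25 ± 0.28 without a block and -0.36 with it.

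No marker of principal neurons passed the test, which 0.0954% of all genes passed. Of 17 pyramidal cell markers 6 were higher and 11 lower, with a median of -0.09, and -0.19 with the set as a block, and of 8 dentate granule cell markers 2 were higher, with a median of -0.10. C1ql2, a synaptic organiser of granule cells, differed by -0.61 ± 0.21 (adjusted p = 0.173), and Pdyn, which encodes the opioid precursor prodynorphin, by -0.24 ± 0.18. Of 13 progenitor and immature neuron markers 1, Marcksl1, passed the test, beside 0.0954% of all genes, and the median was 0.00. Microglia and macrophage markers, 15 genes, had a median of -0.10, and their mean lay at 8.33 to 8.63 in the extreme rats and 8.52 to 8.59 in the minimal rats. Choroid plexus and ependymal markers were lower in 12 of 13 cases with a median of -0.39, which was 0.03 without minimal responder 2 and extreme responder 4. Their mean was 7.06 to 7.62 in the extreme rats, and in the minimal rats 9.43 in minimal responder 2 and 7.27 to 7.36 in the other 3.

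The large housekeeping families had medians within 0.1 of 0 and no gene past the test, beside 0.0954% of all genes. The list of 69 genes matched by ribosomal protein symbols had 28 higher and a median of -0.04. It also matched 7 genes that encode no ribosomal protein, 6 S6 kinase family genes and Rps19bp1, and of the other 62 genes 24 were higher, with a median of -0.06, and -0.01 with the set as a block. Rplp0, the ribosomal stalk protein P0, differed by -0.34 ± 0.08 with no overlap (adjusted p = 0.074). Of 57 mitochondrial ribosomal protein genes 18 were higher, with a median of -0.07, and 0.01 with the set as a block. Oxidative phosphorylation subunits, 59 genes, had a median of 0.00, and Atp5f1b, the catalytic subunit beta of ATP synthase, differed by 0.25 ± 0.07 (adjusted p = 0.103). The proteasome list, 36 genes, had a median of -0.04, which was also the median of the 35 left without Psmc3ip, a gene that encodes no subunit. Psmd11 and Psmd6, both subunits of the regulatory particle, differed in opposite directions, by -0.38 ± 0.09 and 0.29 ± 0.08.

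**Figure D5:**
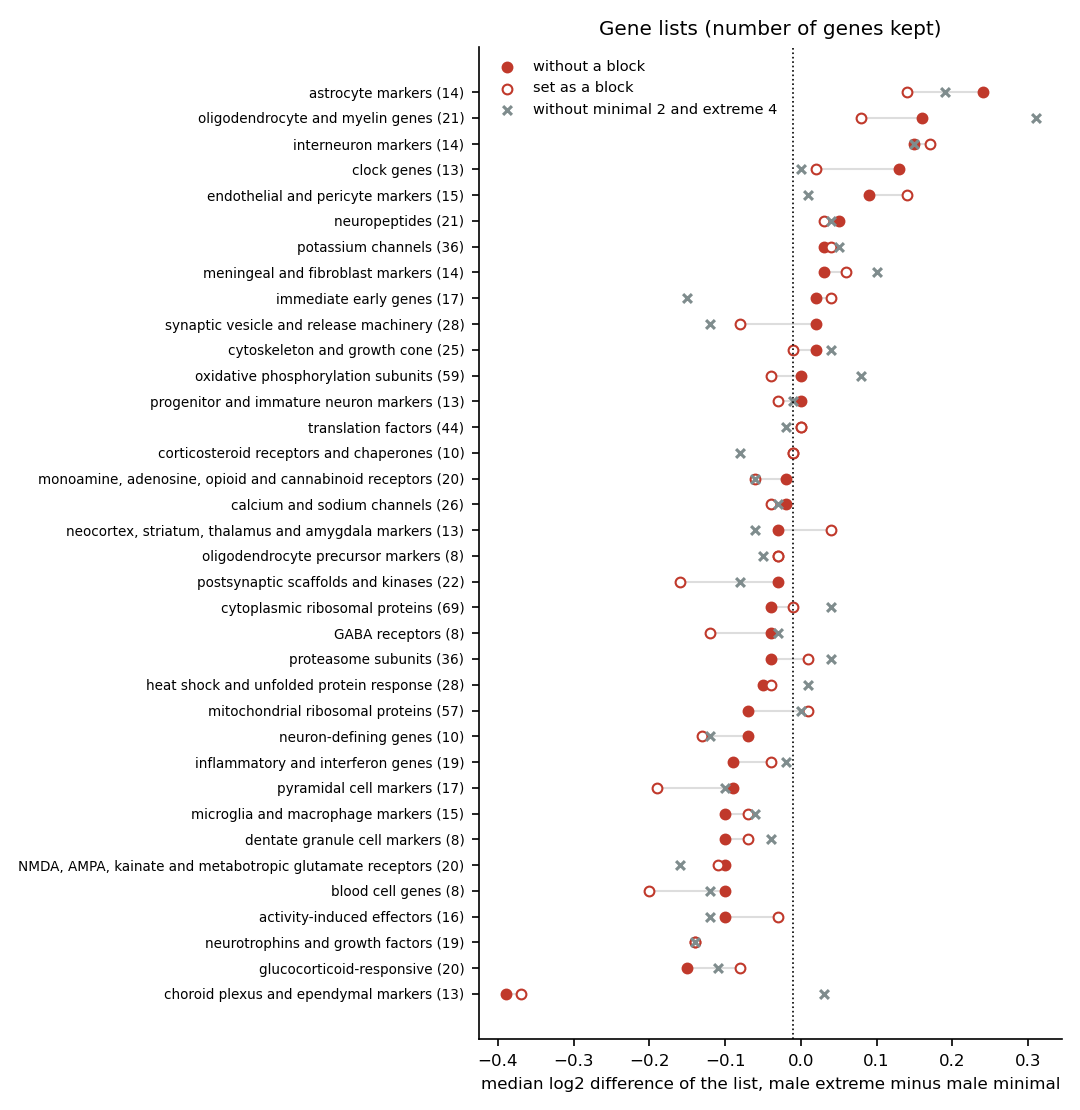
Median log2 difference, male extreme minus male minimal, of each gene list with 5 or more genes kept (number in brackets); filled red points are without a block, open points with the set as a block, grey crosses without minimal responder 2 and extreme responder 4, and the dotted line is the median of all probes, -0.01. Among the points without a block astrocyte markers lie highest at 0.24 and choroid plexus markers lowest at -0.39, with the cross of the choroid plexus list at 0.03.

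Each exposed group was also set against the unexposed male controls. In limma 74 probes, 0.622%, passed the threshold between extreme responders and controls, and 0 between minimal responders and controls, where 504 probes, 4.24%, had an unadjusted p under 0.05. The blocked fit called 57 probes, 0.479%, between extreme responders and controls and 1, 0.00841%, between minimal responders and controls, where 4.95% had an unadjusted p under 0.05. That 1 was ILMN_1363787, which is also among the 4 above, with a difference of 0.71 in minimal responders against controls, adjusted p = 0.00119, and 0.67 without the block, adjusted p = 0.187. The extreme rats are all of set B and the controls of both sets, so set and group overlap in part. These comparisons share rats with the one above. Mnat1 and Stim1 each differed by -0.33 between extreme responders and controls, both with an adjusted p of 0.0171, and by 0.05 and 0.01 between minimal responders and controls. In the blocked fit the extreme rats differed from controls by -0.32 for both, with adjusted p values of 0.0291 for Mnat1 and 0.0343 for Stim1. Marcksl1 lay between the other groups in controls, with a difference of 0.49 in extreme responders (adjusted p = 0.0766) and of -0.26 in minimal responders, and of 0.27 and -0.21 with the set as a block. For Pakap the extreme rats differed from controls by -0.12 and the minimal rats by 0.31.

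The same contrast in females had 450 probes past the threshold, 3.79%, in other rats of the same series, with 162 higher (1.36%) and 288 lower (2.42%). Their 5 extreme rats were likewise all in set B, and 3 of their 5 minimal rats in set A. The blocked fit called 388 probes, 3.26%, in females. Mnat1 differed by -0.35 in females, adjusted p = 0.0025 in limma, Stim1 by -0.34, adjusted p = 0.00357, and Marcksl1 by 0.70, adjusted p = 0.00412, beside male differences of -0.38, -0.34 and 0.75. The female differences in the blocked fit were -0.34, -0.33 and 0.48. Ppt1, Cdk2ap1, Zfp638 and ILMN_1364142 differed by 0.30, 0.15, 0.15 and -0.10 in females. None of these passed there, with adjusted p values of 0.0656, 0.356, 0.43 and 0.796 in limma. Nus1 and Pakap differed by -0.02 and 0.05 in females, and the test of the difference between the sexes gave adjusted p values of 0.268 and 0.157. That test called 0 of 11888 probes in limma, with 932, 7.84%, at an unadjusted p under 0.05. Sgk1 differed by -0.32 in males and 0.88 in females, and its difference between the sexes of -1.20 ± 0.27 had an adjusted p of 0.156. In the fit with the set as a block the test called 4 probes, 0.0336%, with 1 above 0 (0.00841%) and 3 below (0.0252%). They were Tmem252, Errfi1, St3gal4 and the unnamed ILMN_1366573, and Errfi1, an inhibitor of the epidermal growth factor receptor, differed by -0.15 in males and 0.60 in females without the block.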

How the data were processed

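Hippocampal RNA of 29 rats was measured on Illumina bead arrays, and 1 further labelled array, a male minimal responder, has no values. The values are log2 intensities as the authors deposited them: the log base was read from their range, 6.31 to 15, and their normalization software was not given in the sources used here. Sorted columns differ by at most 0.00114, so all arrays share 1 distribution. A second table of signals has 60 columns that could not be mapped to samples and were not used, so the background correction planned on it was not run. Groups were fitted together with limma 3.58.1 in R 4.3.3 (23 residual degrees of freedom), two-sided, with Benjamini-Hochberg adjustment over all probes kept. Of those, 8545 have 1 gene symbol in the platform annotation and 3343 have none; in lists a gene with several probes was represented by its brightest. Figures and promoter searches used Python 3.11.15. On simulated arrays with independent noise, 58.8% of probes changed by 0.4 and 93.6% of probes changed by 0.7 were called, and 0.0873% of unchanged probes. Changes of 0.4 to 1.5 were planted together in each run, which eases the adjusted threshold. The simulated noise held no set division and no outlying array. These shares are therefore not the chance of a call on the real arrays.

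Named genes are all that passed, the 10 with the smallest p in each direction, up to 4 called or else 2 of each list, and 10 stress genes. Also named were the 8 probes that divide the sets and the probes called with the set as a block, between responders or between the sexes. Some genes given with values, such as Klf5, Sostdc1, Mbp, Snap25 and Gfap, fall outside this rule. The members, the lists and the division into sets were chosen with earlier results of these data known. Replicate numbers in the labels do not pair the rats: deviations of same-numbered rats correlated at -0.12 to 0.105, and the same number was the best match in 0 of 4. The number of arrays limits the precision.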

Additional observations from a re-analysis of the deposited data

Results flagged for a closer look

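Values below are the gap between the outermost rat and its nearest neighbour in the group, as a share of the group's range. Of 222 groups of 4 or 5 rats, 25 had a rat beyond Dixon's 95% limit, and chance alone gives such a rat in about 1 in 20 groups. The 8 probes that divide the sets were chosen for that division, so minimal responder 3 had to stand apart on them. Without these probes the count was 16 of 206 groups. The causes were not tested.

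Minimal responder 3, the minimal rat of set B, stood apart from the other minimal rats on probes that divide the sets. The share was 0.964 for ILMN_1372187, 0.967 for ILMN_1358743, 0.938 for ILMN_1362913, 0.94 for ILMN_1353357 and 0.847 for ILMN_1370927. It was 0.941 for Rpl23, 0.919 for Rpl37l1 and 0.855 for Rpl7. Outside those 8 probes it was 0.836 for Rps29, and this rat was the lowest on all 9. It was the highest minimal rat for Kcnh8, a potassium channel, at 0.869, and for Ubqln4, a ubiquitin-binding protein, at 0.84.

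Extreme responder 4, the array with the lowest correlation, was the lowest extreme rat beyond Dixon's limit for 8 genes. The share was 0.949 for Rpl23, 0.761 for Rplp0 and 0.759 for Rps29, all ribosomal proteins. It was 0.893 for Rarres2, the adipokine chemerin, 0.801 for Penk, the enkephalin precursor, and 0.783 for Cnr1, the cannabinoid receptor. It was 0.739 for Cd79b, a B cell receptor component, and 0.719 for Fkbp5. Cd79b exceeded background on 1 of the 9 arrays.

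Minimal responder 2 was the highest for Folr1 at 0.911 and the lowest for Bdnf at 0.895. Minimal responder 1 was the lowest for Dcn, the matrix protein decorin, at 0.831. Extreme responder 5 was the highest for Lum, the matrix protein lumican, at 0.717. Extreme responder 2 was the lowest for Hba-a1, a globin, at 0.732, and extreme responder 3 for Faah, which breaks down endocannabinoids, at 0.728.

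For 4 probes the difference between extreme and minimal responders was itself different between males and females with the set as a block, each with an adjusted p of 0.0448 in limma. The male minus female difference was 0.70 for St3gal4, a sialyltransferase, -0.72 for Errfi1, -0.82 for ILMN_1366573 and -0.64 for Tmem252. Without the block the values were 0.67, -0.75, -0.83 and -0.65, with adjusted p values of 0.141, 0.08, 0.0682 and 0.0682. Tmem252 exceeded background on 1 of the 9 male arrays.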

How the results depend on the processing

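The count of 9 probes between male extreme and minimal responders was 8 with no filter, 10 with a stricter filter and 10 with cyclic loess. It was 4 with the set as a block and 24 with array weights. It was 0 within set B, where 1 male minimal rat remains and is assumed to vary like the other groups, 0 in a fit of the 9 arrays, 0 in a fit of the 14 male arrays and 0 with a trend and robust prior, where the smallest adjusted p ranged from 0.0554 to 0.22. Leaving out 1 rat at a time gave 0 to 101 probes. The 101 came without minimal responder 3, where the minimal males are all of set A and the extreme males all of set B. Alternatives were added after the data were seen: 0 probes passed without the 4 arrays with choroid plexus transcripts, and 0 without both minimal responder 2 and extreme responder 4. The rats share only a replicate number, and 0 probes passed in a fit with that number as a replicate block. Fewer arrays enter the smaller fits; otherwise the cause was not tested.

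The count of 0 for the difference between the sexes was 4 with the set as a block, 2 with a trend and robust prior and 3 with array weights, and 0 to 4 when 1 rat was left out. It was 0 with the replicate number as a block. Fits of the 9 or the 14 male arrays hold no females and give no value. Of the values of called probes under the alternatives, 60 stayed past the threshold and 129 did not, and none changed sign. Values of 7.03 or lower are limited by background.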
